A study of Homo sapiens with 5 samples.

Results

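This section follows the genes for the receptors of the transmitters GABA, glycine and glutamate in IMR32, an established human neuroblastoma cell line, after induction of a hairpin RNA (shRNA) that targets MEIS1, a homeobox transcription factor. Members were taken by symbol: every probe set annotated to 1 gene whose symbol names a GABA-A, GABA-B, glycine, AMPA, delta, kainate, NMDA or metabotropic glutamate receptor subunit. The rule found 50 of the 19775 genes that have a probe set of their own on the array, namely 45 receptor subunit genes and 5 antisense transcripts that carry a receptor gene's symbol. They had 114 probe sets, and a further 5 probe sets annotated to several genes at once were not used. Each gene was followed through its brightest probe set.

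All 5 samples were IMR32 cells with a stably integrated, doxycycline-inducible MEIS1-shRNA, described as specific for MEIS1b, grown in DMEM with 10% fetal calf serum. One Affymetrix U133 Plus 2.0 array was hybridised with total RNA of cells before induction (0 h, no doxycycline) and 1 each after 24, 48, 96 and 192 h of doxycycline. No time point had a replicate. Later arrays of uninduced cells, or of cells with another hairpin, were not analysed here. Time in culture, doxycycline and the hairpin can therefore not be told apart.

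GABA and glycine open chloride channels built from 5 subunits. In mature neurons these are inhibitory, whereas in immature neurons and neuroblasts GABA often depolarises the cell. Glutamate acts on tetrameric cation channels of the AMPA, kainate and NMDA classes and on metabotropic receptors, which like GABA-B receptors signal through G proteins. Neuroblastoma arises from sympathetic precursors, whose main fast transmitter receptors are nicotinic, and lines such as IMR32 are used as models of neuronal differentiation.

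The values are MAS5 signals, a background-subtracted brightness in arbitrary units scaled to the same trimmed mean on each array. A signal depends on the probes, so a higher signal for one gene than for another does not show more transcript, and whether a gene passes a signal filter depends on its probes too. Array medians were 17.8 to 19 except for 16 at 24 h. Both MEIS1 probe sets were below their 0 h signal on every induced array, at 1052 before and 786.6 to 857 after induction for the brighter one and 597.2 before and 443.8 to 560.4 after for the other. Of 9 neuroblastoma identity genes with a probe set of their own 8 passed the signal filter described below, with TH under it, and the summed signal of the 9 was 9760 to 12900. In the limma trend described below STMN2 (10 at 0 h, 58.4 at 192 h; fitted log2 change 2.41, adjusted p = 0.0115) and CHGA (998.2 and 1756.3; 1.04, adjusted p = 0.00833) rose, 0 of the 8 fell and their median fitted change was 0.69. Of 6 Schwann and glial markers only ERBB3 passed (summed signal 46.8 to 71), of 6 blood and endothelial markers only CDH5 (47.1 to 95.8) and of 6 epithelial markers only ESRP1 (25.2 to 61.1). Among 5 fibroblast markers PDGFRA, PDGFRB and THY1 passed while DCN and LUM did not, and the summed signal went from 610 at 0 h to 250 at 192 h. Most of that difference was PDGFRA, which fell from 457.3 to 131.6 (limma adjusted p = 2.8e-04), while PDGFRB (adjusted p = 0.456) and THY1 (0.972) did not pass. The mean log2 level of the poly-A spike-in controls differed from that of the 0 h array by 0.10, -0.45, -0.61 and -0.25 on the 24, 48, 96 and 192 h arrays. Whether cell composition or labelling had a part in the results below was not tested.

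Most receptor genes were dim. A gene was tested where its mean signal over the 5 arrays was at least 17.9, the median of all signals. By this filter 16 of the 45 receptor genes passed, beside 11944 of all 19775 genes, and the 16 had mean signals of 18.2 to 139. The other 29 had means of 1.94 to 16.8, and only 10 of their 145 single values, in 7 genes, reached 17.9. Since the filter uses the mean of all arrays, a gene high at a single time could pass through that time. Of the 15 GABA-A genes 3 passed (GABRA5, GABRQ and GABRB2), of the 2 GABA-B genes GABBR1, of the 4 glycine receptor genes GLRB, of the 4 AMPA genes GRIA3, and the only delta gene analysed, GRID1, passed as well. Of 5 kainate genes 3 passed (GRIK3, GRIK5 and GRIK2), of 7 NMDA genes 4 (GRIN2D, GRIN3A, GRIN1 and GRIN2C) and of 7 metabotropic glutamate receptor genes 2 (GRM2 and GRM4). All 5 antisense transcripts had means of 3.16 to 7.24 and were not tested.

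**Figure D1:**
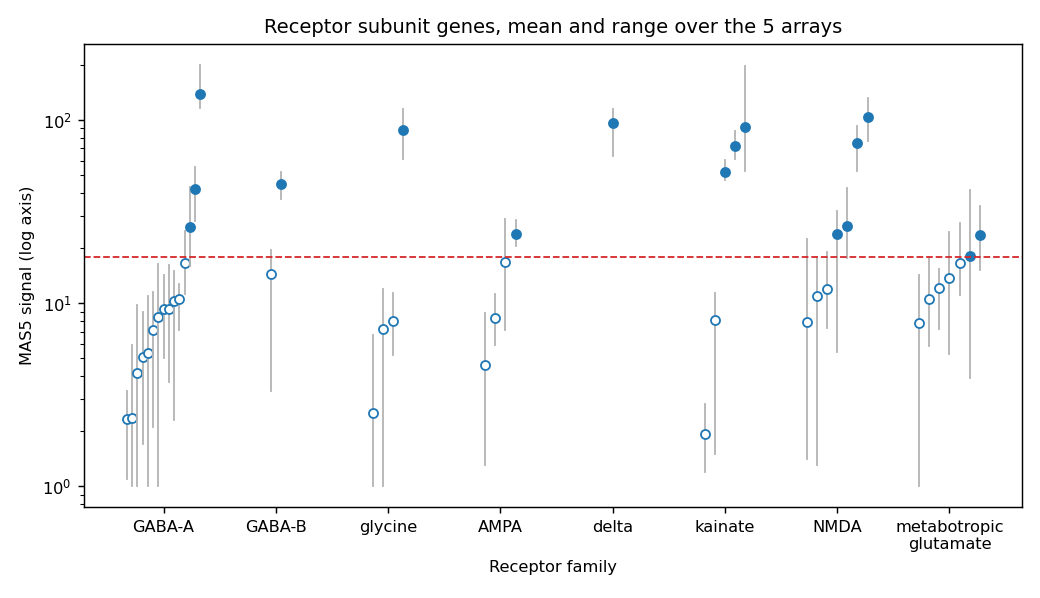
MAS5 signal (log axis) of the 45 receptor subunit genes by family, 1 probe set per gene. Circles are means over the 5 arrays and grey lines the range; filled circles are the 16 genes at or above the filter of 17.9 (dashed line), and the 29 open circles lie between 1.94 and 16.8.

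With 1 array per time point, the test was a straight line over the 5 arrays in limma, with the time points as steps 0 to 4. It was fitted to log2(signal + 4.7) for all 11944 genes that passed the filter, and the slope was multiplied by 4 steps to give the fitted change, with its standard error (SE). P-values are two-sided and adjusted by Benjamini-Hochberg over all 11944 genes, with a threshold of 0.05. They and the SEs rest only on scatter of 5 unreplicated arrays about that line. In limma each gene's own scatter is moderated toward that of genes of like signal. With 3 residual and 9.07 prior degrees of freedom, most of the weight came from those other genes. By this test 1 of the 16 receptor genes rose, GRIK3, against 2.02% of all tested genes, and 0 fell, against 1.46%. With so few members, 1 call is a share of 6.25% and is not a result about the family as a whole. In the same limma fit 4 of the 16 had an unadjusted p under 0.05 (25%, beside 17% of all tested genes), with GRIK3 and GABRA5 positive and GRIN3A and GRIN2C negative. With no filter, all 45 genes could be fitted and 0 passed. Of the 45, 4 had an unadjusted limma p under 0.05, a smaller share than the 11.9% of all genes. They were GRIK3, GRIN3A, GRIN2C and GRIA2, while GABRA5 was no longer among them. The median fitted log2 change of the 16 genes was 0.30, with 12 positive and 4 negative, beside a median of 0.003 and 50.3% positive over all tested genes.

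GRIK3, which encodes the low-affinity kainate receptor subunit GluK3, had the largest fitted rise of the 16 genes. In time order its signal read 58.3, 52.6, 76.2, 73 and 198.4. The first 4 arrays thus lay close together and the last stood apart, 3.22-fold above 0 h on the scale with the offset. The fitted log2 change was 1.53 ± 0.37 (SE; limma adjusted p = 0.0438). The call rests on the last array: without 192 h the fitted change, still scaled to 4 steps, was 0.56 (limma adjusted p = 0.512). The gene also missed the threshold without 24 h (0.091) or 48 h (0.0502). Over all 16 alternatives the adjusted p ran from 0.00996 to 0.943, with 8 past the threshold. The only other GRIK3 probe set stayed between 1 and 3 on all arrays, so the rise has no second probe set behind it. In RNA of whole cultures, more cells with the transcript and more transcript per cell cannot be told apart, here and below.

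The 250 bases before and 50 after the RefSeq start of GRIK3 (GRCh38.p14, chr1:37034466-37034765, minus strand) are shown because it is the gene that passed. Those of GRIA2 (chr4:157219870-157220169, plus strand) are shown as an AMPA receptor gene that holds the motif searched. The AMPA gene GRIA1 holds it as well, and GRIA2 was singled out after its values were seen. GRIA2 lay below the filter and did not pass with no filter. Capitals mark TGACAG, the core motif of MEIS factors, searched on both strands.
GRIK3: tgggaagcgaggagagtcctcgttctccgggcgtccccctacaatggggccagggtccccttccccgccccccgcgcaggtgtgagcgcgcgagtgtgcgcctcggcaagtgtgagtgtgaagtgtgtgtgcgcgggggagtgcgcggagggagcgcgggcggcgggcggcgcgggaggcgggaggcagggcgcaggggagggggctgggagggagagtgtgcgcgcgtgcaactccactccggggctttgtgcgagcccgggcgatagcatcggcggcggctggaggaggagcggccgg
GRIA2: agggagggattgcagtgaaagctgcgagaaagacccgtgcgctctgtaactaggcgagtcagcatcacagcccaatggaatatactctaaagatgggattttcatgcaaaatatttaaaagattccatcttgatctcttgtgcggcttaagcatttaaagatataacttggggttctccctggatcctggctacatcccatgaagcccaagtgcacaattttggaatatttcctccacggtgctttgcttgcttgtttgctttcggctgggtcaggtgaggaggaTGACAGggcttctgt
The GRIK3 window is 74.3% G and C with 37 CG pairs and holds no TGACAG, and the GRIA2 window is 46.3% G and C with 7 CG pairs and holds 1, starting 36 bases after the start. RefSeq windows were at hand for 37 of the 45 receptor genes, and 6 of them held the motif (GABRA2, GLRA2, GLRA3, GRIA1, GRIA2 and GRM6). That is 16.2%, beside 15.9% of 27305 windows of all genes, so the receptor genes were close to the background. None of the 11 windows of tested receptor genes held it. TGATTGAC, the octamer bound by PBX and MEIS together, was in 0 of the 37 and in 0.593% of all windows. The 11 tested genes had a median of 69.3% G and C and 27 CG pairs per window and the 26 below the filter 60% and 13.5, beside 58.3% and 14 over all windows, given as a description without a test.

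The other kainate genes moved less. GRIK2, which encodes the low-affinity subunit GluK2, read 48.7, 48.8, 47.3, 60.6 and 55.9 in time order, a fitted log2 change of 0.26 ± 0.28 (limma adjusted p = 0.723), and its 3 probe sets above the filter gave 0.26 to 0.35. GRIK5 encodes GluK5, a high-affinity subunit that forms channels only together with GluK1 to GluK3. Its brightest probe set read 74.2, 61.4, 73.7, 63.6 and 87.5 (0.20 ± 0.27, adjusted p = 0.79). A second GRIK5 probe set read 42, 39.6, 39.8, 66.5 and 91, with a slope worth 1.10. The GRIK5 probe sets above the filter thus shared a direction and a maximum at 192 h but differed in size. The remaining one, below the filter, read 9.1, 1.4, 3.4, 4 and 2.8, with a slope worth -0.50. GRIK1 and GRIK4 were below the filter, with means of 8.08 and 1.94.

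**Figure D2:**
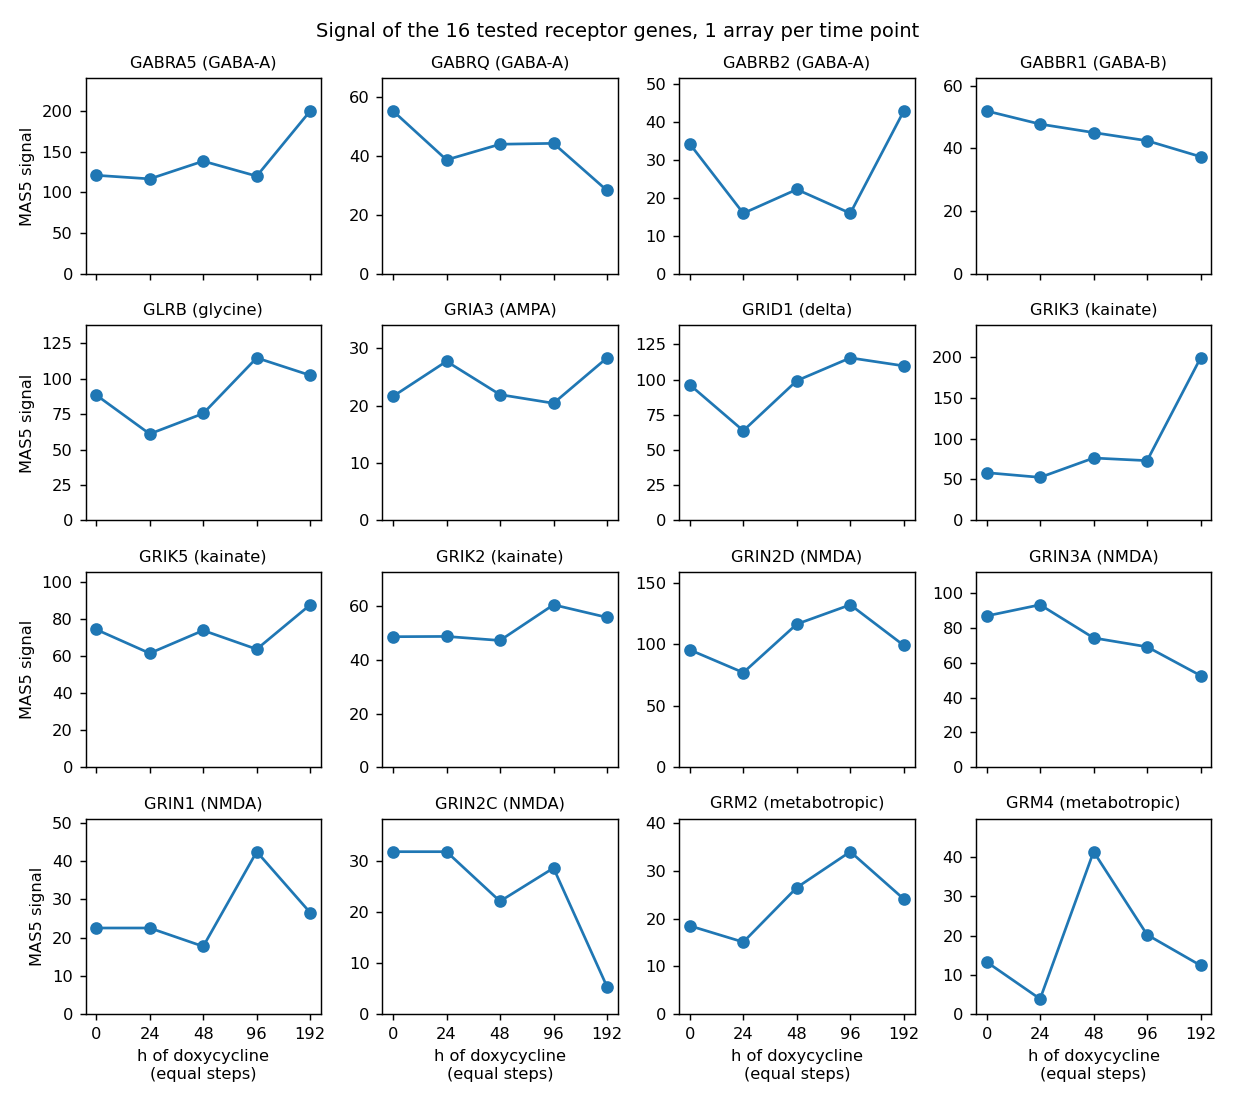
MAS5 signal of the 16 tested receptor genes against hours of doxycycline (equal steps; linear axes from 0, each with its own range), 1 array per point. GRIK3 goes from 52.6 to 76.2 on the first 4 arrays to 198.4 at 192 h, GABBR1 is lower at each step, and GRM4 peaks at 41.3 at 48 h.

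Among NMDA receptor genes none passed the threshold. GRIN1 encodes GluN1, the subunit every NMDA receptor needs, and its brightest probe set read 22.5, 22.5, 17.7, 42.4 and 26.5 (fitted log2 change 0.48 ± 0.46, limma adjusted p = 0.684), while the other GRIN1 probe sets had means of 6.3 or less. GRIN2D, an NMDA subunit typical of early development, read 95.5, 77, 116.4, 132.1 and 99.1 (0.34 ± 0.27, adjusted p = 0.608) and ended where it began. GRIN3A, whose GluN3A subunit lowers calcium entry and binds glycine, read 86.8, 93.2, 74.2, 69.1 and 52.6. The highest value was at 24 h and each later one was below the one before it, and the fitted log2 change was -0.70 ± 0.25 (limma adjusted p = 0.166; -0.97 to -0.28 over the alternatives).

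GRIN2C (GluN2C, best known from the cerebellum) had the lowest fitted log2 change of the 16, -1.54 ± 0.55 (limma adjusted p = 0.167). Its brightest probe set read 31.8, 31.8, 22.1, 28.6 and 5.4, so the fall lay between 96 and 192 h. A second GRIN2C probe set read 21.1, 10.5, 17, 28.8 and 36.3, highest at 192 h, with a slope worth 0.99. The probe sets thus ran in opposite directions, and no direction can be given for the gene. Below the filter, GRIN2A, GRIN2B and GRIN3B had means of 10.9, 11.9 and 7.86. GRIN3B shows how single values behave there, with 22.3 at 48 h and 1.4 at 96 h.

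AMPA receptors carry most fast excitation in the brain. GRIA3, the tested member, read 21.6, 27.7, 21.9, 20.4 and 28.3 (fitted log2 change 0.11 ± 0.41, limma adjusted p = 0.937) and showed no order in time. It passed the filter through this probe set alone, as the other GRIA3 probe sets had means of 8.82 or less. GRIA2 encodes the subunit that makes AMPA channels impermeable to calcium. It was singled out after its values were seen, and with a mean of 16.8 it lay just below the filter. Its brightest probe set read 7.1, 15, 12.4, 20.8 and 28.8 and a second one 7.9, 9.7, 2.1, 18.3 and 31.2. Both were highest at 192 h and next highest at 96 h, and the remaining one stayed between 1 and 4.6. With no filter the fitted log2 change of GRIA2 was 1.35 ± 0.46 (limma adjusted p = 0.334), so it did not pass. GRIA1 and GRIA4 had means of 4.6 and 8.32. GRID1, the delta receptor GluD1, which acts as a synaptic organiser bound by cerebellins, read 96.3, 63.7, 99.2, 115.4 and 109.7 (0.47 ± 0.28, adjusted p = 0.449), and a second GRID1 probe set had a slope of the other sign, -0.40.

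Of the metabotropic glutamate receptors, GRM2 read 18.5, 15.1, 26.5, 34 and 24.1 (fitted log2 change 0.64 ± 0.45, limma adjusted p = 0.529), with a second probe set at -0.02. GRM4, named although outside the rule for named genes because it completes the 16, read 13.3, 3.9, 41.3, 20.2 and 12.4 (0.55 ± 0.78, adjusted p = 0.801). Its large swings without a direction gave it the widest SE of the 16. Both encode receptors that lower cyclic AMP and dampen transmitter release. GRM8, at a mean of 16.6, read 27.3, 18.8, 13.2, 12.6 and 11.1, and GRM5 24.6, 19.8, 7.5, 5.3 and 11.2. These are their brightest probe sets, with slopes worth -0.99 and -1.22. The other GRM8 probe sets, at means of 16 and 15.4, had slopes worth 0.05 and -0.27 and did not share the steady fall. The other GRM5 probe sets gave -0.69 and -0.64, and the brighter of them began at 11.7 and ended at 11.6. GRM8 and GRM5 were chosen after their values were seen, and with no filter neither passed (limma adjusted p = 0.445 and 0.497).

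On the inhibitory side no GABA or glycine receptor gene passed. GABRA5 encodes the alpha5 subunit, found mostly in extrasynaptic GABA-A receptors and in developing neurons. It read 120.8, 116.4, 138.2, 119.8 and 199.9. As with GRIK3 the last array stood apart from the first 4, but the fitted log2 change was 0.58 ± 0.24 (limma adjusted p = 0.245), and the other 2 GABRA5 probe sets above the filter gave 0.08 and 0.02. GABRQ, the theta subunit, read 55.2, 38.6, 43.9, 44.2 and 28.2, lowest at 192 h (-0.62 ± 0.34, adjusted p = 0.385). GABRB2, a beta subunit that helps form the GABA binding site, read 34.2, 15.9, 22.2, 15.9 and 42.9 (0.23 ± 0.55, adjusted p = 0.896), and was low on the middle arrays. A second GABRB2 probe set read 39.5, 22.7, 22.3, 23.3 and 22.6, a slope worth -0.54, and it did not share the high 192 h value of the brightest one. The remaining one, just below the filter at a mean of 16.8, did share it. It read 11.7, 14.4, 19.2, 9 and 29.5, a slope worth 0.66. Of the gamma subunits, which synaptic GABA-A receptors need, GABRG1 and GABRG3 had means of 9.26 and 9.32.

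GABBR1 encodes the ligand-binding subunit of the GABA-B receptor. It read 51.9, 47.7, 45, 42.4 and 37.3 and was the only one of the 16 that was lower at every step, which 2.18% of all tested genes were, and 0 of the 16 were higher at every step, beside 2.33%. Its fitted log2 change was small, -0.41 ± 0.29 (limma adjusted p = 0.549). The other GABBR1 probe set, just below the filter at a mean of 17.2, did not share the stepwise fall. That probe set read 20.3, 14.5, 15.1, 19.3 and 17, a slope worth -0.03. The partner gene GABBR2, needed to bring GABBR1 to the cell surface, had a mean of 14.5 and its 4 probe sets all lay below the filter. GLRB encodes the glycine receptor beta subunit, which binds the scaffold gephyrin, and read 88.4, 61, 75.4, 114.6 and 102.3 (0.50 ± 0.30, adjusted p = 0.435). All 3 of its probe sets above the filter had positive slopes, of 0.16 to 0.50. The alpha subunits that glycine channels also need, GLRA1, GLRA2 and GLRA3, had means of 2.52, 7.2 and 8.

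**Figure D3:**
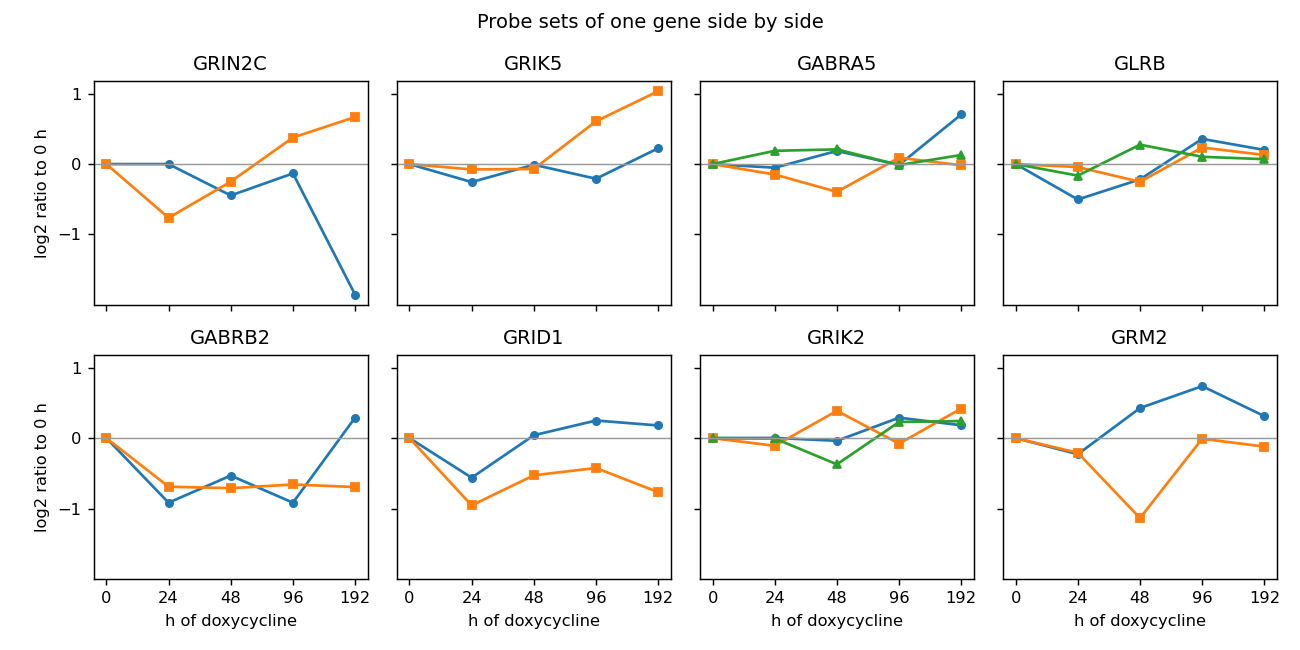
Log2 ratio to 0 h, on the log2(signal + 4.7) scale, against hours of doxycycline (equal steps) for the 8 receptor genes with more than 1 probe set above the filter; circles mark the brightest probe set, squares and triangles the others. In GRIN2C, GABRB2, GRID1 and GRM2 the fitted slopes have both signs.

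Thus 8 genes had a check within the array, and 4 of the 8 (GABRA5, GLRB, GRIK2 and GRIK5) had slopes of 1 sign in all their probe sets above the filter, while 4 had both signs. The brightest probe sets of GRIN1 and GRIK5 carry the suffix _x_at, by which Affymetrix marks probes that can also match other transcripts. Noise was larger at low signals. Among tested genes with a mean signal of 17.9 to 50, which hold 8 of the 16 receptor genes, the median residual SD around the line was 0.30 on the log2 scale and 0.931% of genes were called. Between 50 and 150, where the other 8 lie, these values were 0.18 and 3.36%, and above 500 the SD was 0.10.

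At single time points, without a test, GRIK3 was at least 2-fold higher at 192 h than at 0 h, as were 2.3% of all tested genes, and GRIN2C, in its brightest probe set, at least 2-fold lower, as were 1.93%. The 192 h array held the highest value of 5 of the 16 genes (GRIK3, GABRA5, GRIK5, GABRB2 and GRIA3), beside 20% of all tested genes, and the lowest of 4 (GRIN3A, GRIN2C, GABRQ and GABBR1), beside 23.7%. Relative to 0 h, the median log2 ratio of the 16 ran through -0.18, -0.02, 0.12 and 0.19 in time order. On the 24 h array 11 of the 16 were below their starting signal (68.8%), 3 above and the others equal. The share below was 50.2% over all tested genes. On the 192 h array 5 of the 16 were below it (31.2%, beside 51.2%) and 11 above. Over the 5744 tested genes with mean signals under 150, the range these receptors lie in, the median ratio was -0.05 at 24 h, with 56.2% below 0 h, and 0.007 at 192 h, so dim genes as a whole also read slightly lower on the 24 h array.

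Some receptor genes are next to each other among protein-coding genes in RefSeq (GRCh38.p14), and neighbours did not always fall on the same side of the filter. On chromosome 15 GABRA5 lay above the filter and its neighbour GABRG3 below it, read at 12.6, 16.2, 5.6, 3.7 and 8.5. On chromosome 5 GABRB2 passed and GABRA6, with a mean of 2.36, did not, and on the X chromosome GABRQ passed and GABRA3, at 2.34, did not. GLRB, above the filter, and GRIA2, below it, are neighbours on chromosome 4. The chromosome 4 pairs GABRG1 with GABRA2 and GABRA4 with GABRB1, and GABRR1 with GABRR2 on chromosome 6, were all below the filter. Fitted with no filter, GLRB and GRIA2 were both positive (0.50 and 1.35), as were GABRG1 and GABRA2 (0.60 and 0.43). Signs were opposite in GABRA5 and GABRG3 (0.58 and -0.84), GABRB2 and GABRA6 (0.23 and -0.33), and GABRQ and GABRA3 (-0.62 and 0.32). The same held for GABRA4 and GABRB1 (0.51 and -0.35), and GABRR1 and GABRR2 (-0.115 and 0.63). None of these changes passed.

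The genes around these receptors were followed in 8 lists of 121 genes chosen from textbook knowledge, with earlier results of these data known. The lists cover supply and removal of each transmitter, anchoring, auxiliary subunits, scaffolds, chloride transporters and modulators. Of the 121 genes, 79 were tested, and 7 rose (8.86%, against 2.02% of all tested genes) and 1 fell (1.27%, against 1.46%). As the lists were not chosen independently of these data, those shares describe them and are no test of enrichment. The share called also varied with signal, at 0.931% of tested genes from 17.9 to 50 and 5.06% from 150 to 500. The median fitted log2 change of the 79 was 0.11, with 44 positive and 35 negative. Of the 8 calls only SHANK2 passed with the spike-in level as a covariate, and only SHANK2 and ABAT passed in every fit that left out 1 array.

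SHANK2, a postsynaptic scaffold that links NMDA and metabotropic glutamate receptors, read 130.1, 158.8, 211.9, 242.2 and 339.5, higher at every step. Its fitted log2 change was 1.32 ± 0.17 (SE; limma adjusted p = 0.00176), and its 3 probe sets gave 1.32 to 1.56. It was the only one of 21 tested scaffold genes that passed. DLGAP2 (1.22), another scaffold, and TAMALIN (-1.55), a metabotropic receptor partner, had large fitted changes that did not pass. A pair of glutamate transporters rose among 9 tested genes of glutamate supply and removal. SLC1A2 (EAAT2) read 187.4, 197.2, 246.5, 284.6 and 334.2 (0.86 ± 0.16, adjusted p = 0.0104, and 0.207 with the mean over its 3 probe sets), and SLC1A3 (EAAT1) 113.2, 179.8, 169.3, 296.7 and 245.6 (1.15 ± 0.25, adjusted p = 0.0241). The neuronal transporter SLC1A1 (EAAT3) was lower at every step, from 81.4 to 39.2, without passing (-0.90 ± 0.26, adjusted p = 0.0908).

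ABAT, the transaminase that breaks down GABA, rose from 158.2 at 0 h through 167.9, 214.3 and 289.2 to 311.4 (1.07 ± 0.17, limma adjusted p = 0.00519), and its 3 probe sets above the filter had slopes of 0.28 to 1.53. With the mean over probe sets ABAT did not pass (adjusted p = 0.077). It was the only call among 5 tested genes of GABA supply and removal. LHFPL4, which brings GABA-A receptors to inhibitory synapses, rose from 69.1 to 126 with its maximum of 132.1 at 96 h (0.95 ± 0.23, adjusted p = 0.0397), the only call of 13 anchoring and trafficking genes. This call was lost in all 5 fits without 1 array (limma adjusted p of 0.0502 to 0.234) and with array medians set equal (0.0507). Gephyrin, GPHN, had a fitted change of 0.17. KCTD12, an auxiliary subunit of GABA-B receptors, had -0.99 ± 0.27 (adjusted p = 0.0708). OLFM1, an AMPA receptor-associated secreted protein, rose from 1122.7 to 1751.8 (0.75 ± 0.15, adjusted p = 0.02), alone among 12 tested auxiliary subunit genes.

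Among 10 tested modulators, NPTX1, a neuronal pentraxin that clusters AMPA receptors, read 218.7, 182.3, 218.6, 483.3 and 565.7 and rose (1.64 ± 0.30, limma adjusted p = 0.0104). C1QL1, a secreted ligand of the C1q family, read 535.1 at 0 h and 318.6, 357.4, 281.6 and 276.2 afterwards and fell (-0.82 ± 0.20, adjusted p = 0.0469). Its drop lay between 0 and 24 h. A fit from 24 h on, with its slope still scaled to 4 steps, gave -0.38 (limma adjusted p = 0.58). CBLN1, a cerebellin that binds delta receptors, had 0.78 ± 0.24 (adjusted p = 0.111). None of 5 tested glycine supply genes and 4 chloride transporters passed; the largest changes were those of GCSH (-0.42) and AMT (0.22), and of SLC12A9 (0.33) and SLC12A7 (-0.28). SLC12A2 (NKCC1), the chloride importer of immature neurons, read 182.3 to 221.2 on all arrays.

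**Figure D4:**
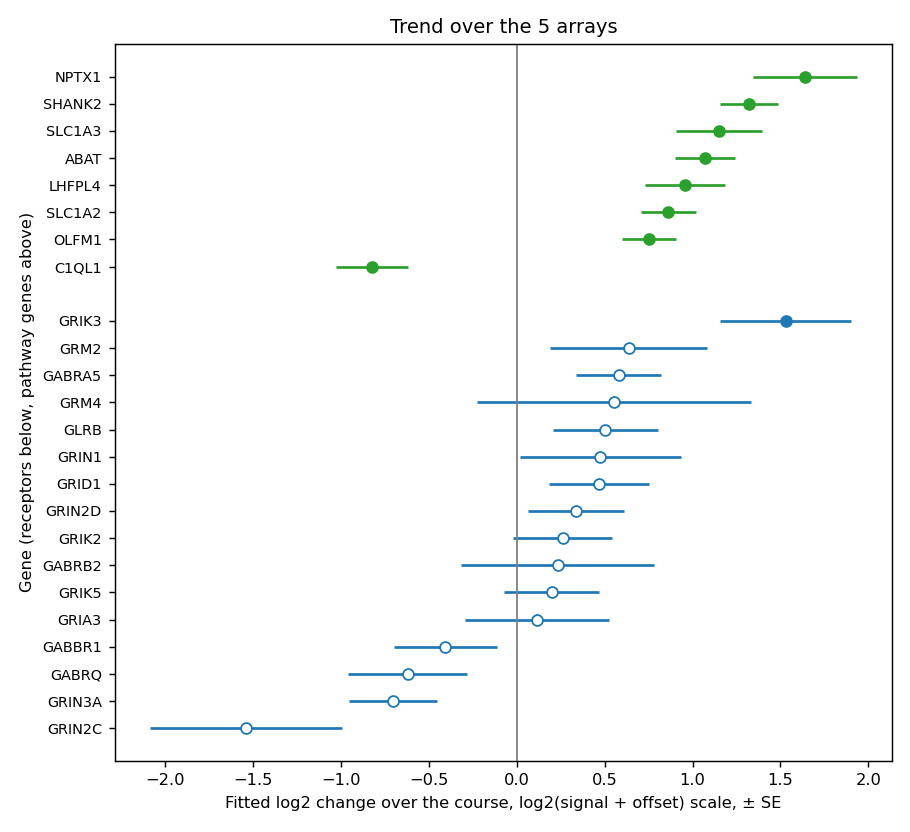
Fitted log2 change over the course (x axis, log2(signal + 4.7) scale) with its SE for the 16 tested receptor genes (blue) and the 8 pathway genes that passed (green), 1 array per time point. Filled circles passed a limma adjusted p of 0.05; GRIK3 at 1.53 is the only filled receptor gene, and C1QL1 at -0.82 the only filled gene below 0.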

How the data were processed

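Total RNA of 5 IMR32 samples was measured on 5 arrays, 1 per time point. Per the submitters' processing notes the authors used MAS5 and GCOS; no versions are named there. The deposited values were read as log2 MAS5 signals: they run upward from 0, and 100% of them are logs of multiples of 0.1 (within 0.01). No source used here states the log step, the floor (signal 1) or the scaling, which were inferred from the values; means trimmed by 2% at each end were 100.02 to 100.03. After undoing the log, 4.7 (the median of the arrays' 25th percentiles) was added as an offset before taking log2 again, which understates changes of dim genes. The filter kept mean signals from 17.9 upward and the brightest probe set per gene, and limma 3.58.1 in R 4.3.3 fitted the trend across all 11944 genes (eBayes with trend; 3 residual and 9.07 prior degrees of freedom), after a check on simulated data. The number of arrays limits the precision. Of 54675 probe sets, 41091 have 1 gene in the platform annotation. Members and lists were chosen with earlier results of these data known. Named are members past the threshold, the 15 brightest, those changed by at least 1 on the log2 scale and each family's brightest, and in each pathway list the genes past the threshold or else the 2 largest changes; others were chosen after their values were seen. Alternatives changed the offset, filter, scaling, time scale, moderation, probe set summary, spike-in covariate or left out an array. Where an array was left out, the slope was still multiplied by 4 steps.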

Additional observations from a re-analysis of the deposited data

How the results depend on the processing

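No paired analysis was possible because each time point has 1 array. No array had a replicate, so no setting shows a spread between replicates, and detection calls were not analysed here. The number of receptor genes that rose was 1 in the main fit and 0 with no signal filter, quantile normalization, 0 h against the mean of the induced arrays, eBayes without trend or the mean over probe sets; leaving out 1 array gave 0 to 1. No receptor gene fell under any of the 16 alternatives. Of the pathway genes 7 rose in the main fit, 1 with no filter, 4 with hours as a linear term, 0 with 0 h against the induced mean, 0 without trend in eBayes, 1 with the spike-in covariate, 5 with the mean over probe sets (ABAT and SLC1A2 lost) and 3 to 6 without 1 array (3 without 0 h, 4 without 192 h). One pathway gene fell in the main fit, 2 with array medians set equal (C1QL1 and KCTD12), 0 under no filter, quantile normalization, hours, 0 h against the induced mean, eBayes without trend, the spike-in covariate or the mean over probe sets, and 0 to 1 without 1 array (KCTD12 without 0 h, C1QL1 without 24 h). Over all genes 415 passed in the main fit; 0 h against the induced mean called 0 and eBayes without trend 22. Directions turned for genes that had not passed: with 0 h against the induced mean GRID1 (-0.023), GLRB (-0.040), GRIK5 (-0.062), GABRB2 (-0.52) and AMT (-0.17); with the spike-in covariate GRIN2D (-0.17) and GRM4 (-0.94); with the mean over probe sets GABRB2 (-0.15); without 1 array GRIK5 (-0.15 without 192 h, range up to 0.50), GABRB2 (-0.021 without 24 h and -0.95 without 192 h, up to 1.30), GRIA3 (-0.0017 without 0 h and -0.19 without 192 h, up to 0.24) and GRM4 (-0.053 without 24 h, up to 1.53). The cause was not tested. With array medians set equal 45.7% of called genes rose, against 58.1%.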
